A study of Marchantia polymorpha with 18 samples.

Results

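Levels reached after wounding were compared between the liverwort Marchantia polymorpha double mutant Mpdes6fad5 and the wild type Tak-1. The comparison was chosen by sample labels: 6 of the 18 RNA-seq libraries of the study, 3 of wounded Mpdes6fad5 and 3 of wounded Tak-1. Tak-1 is a male accession and carries neither mutation. Mpdes6fad5 is labelled a double mutant of the fatty acid desaturase genes MpDES6 and MpFAD5, and the labels do not give the kind of mutation in either gene or how many lines were used. The other groups, used here only where stated, were mock Tak-1, mock Mpdes6fad5, and mock and wounded Mpcoi1, a mutant of the jasmonate receptor gene, each with 3 libraries. Plants were kept for 3 weeks on agar with Gamborg's B5 medium and wounded with tweezers. The treatment protocol puts freezing at 90 min after wounding, whereas the sample labels say 2 hours. The tissue is labelled leaflets in one field and described as apical pieces of thallus without gemma cups in another. Each library was made from 6 to 8 pooled plants and is described as an independent biological replicate. The 2 wounded groups show the level each genotype reached, not how far it moved from its own unwounded level. The mock difference is therefore set beside the wounded difference for part of the genes and lists. Where no mock value is given, the difference may have been present before wounding.

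Jasmonates are hormones that plants make from polyunsaturated fatty acids, mainly after wounding or attack. Desaturases introduce the double bonds, lipoxygenases add oxygen, enzymes of the CYP74 family of cytochromes P450 rearrange the resulting hydroperoxides, and further steps in plastids and peroxisomes shape the final molecule. In M. polymorpha the COI1 receptor binds dinor forms of the precursor OPDA rather than the jasmonoyl-isoleucine of flowering plants. The bound receptor removes JAZ repressors and so frees MYC transcription factors to act on their targets.

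Levels are given as CPM, read counts scaled to a common effective library size and recovered from the deposited log2 values. A difference is the mean of log2(CPM + 1) in wounded Mpdes6fad5 minus that in wounded Tak-1, with its standard error (SE), 3 libraries against 3. The added 1 CPM shrinks differences of genes with low levels. A gene is called higher or lower where limma's moderated test gave a Benjamini-Hochberg adjusted p under 0.05 over the 13220 genes tested. Values of single libraries follow the order of replicates 1, 2 and 3.

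Wounded Tak-1 libraries held 20923299, 23302018 and 24271262 reads in genes and wounded Mpdes6fad5 libraries 21883861, 21142171 and 19676170. Replicate 3 of wounded Tak-1 stood apart from its group. Its correlation with the other wounded Tak-1 libraries across genes was 0.986 and 0.988, against 0.995 between those, and its correlation with the wounded Mpdes6fad5 libraries was 0.966 to 0.973, against 0.956 to 0.968 for the other wounded Tak-1 libraries. Results that it moves by over 1.5 times are given with and without it. Of the cell type marker lists, oil body cells had 2 higher, 1 lower and 3 uncalled of 6 genes, and meristem had 0 higher and 2 lower of 3, with summed levels of 202 to 256 CPM in wounded Mpdes6fad5 and 282 to 349 CPM in wounded Tak-1. Gemma and gemma cup markers had 1 higher of 3, male germline markers 2 higher of 3 measured, and the single rhizoid and photosynthetic tissue genes were not called. Without replicate 3 of wounded Tak-1, oil body cells had 1 higher, the meristem 1 higher and gemma cups 2 higher. Without replicate 1 of wounded Tak-1, oil body cells and gemma cups each had 0 higher, as with quantile normalization. With library totals they had 4 and 2 higher. Over all tested genes 25.5% were higher and 25.6% lower in the full comparison. Summed levels were 198 to 219 against 218 to 282 CPM for oil body cells, 74.4 to 78.8 against 61.4 to 81.8 CPM for gemma cups, and 16.3 to 21.0 against 9.67 to 12.1 CPM for the male germline. The sperm protein gene MpPRM had no read in any wounded library of either genotype. These are libraries of whole tissue, in which fewer cells of a type and less RNA per cell cannot be told apart, and the part of cell make-up in any result below was not tested.

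In wounded tissue 3365 genes were higher in Mpdes6fad5 than in Tak-1, 25.5% of the genes tested, and 3388 were lower, 25.6%. Most of these differences were small. The difference reached 2-fold on the log2(CPM + 1) scale for 522 higher genes (3.95% of those tested) and 264 lower genes (2% of those tested). Some genes passed the filter of 1 CPM in 3 libraries only through the group where they were high, which fixed their direction. Leaving out a wounded Mpdes6fad5 library left 13097 to 13116 tested genes, and a wounded Tak-1 library 13188 to 13201. With a mean of at least 5 CPM as filter the 2-fold counts were 265 higher and 200 lower. The median difference over all tested genes was 0.01. For 7124 tested genes (53.9%) all 3 wounded libraries of a genotype lay on one side of the other's, so a lack of overlap was common. Without replicate 3 of wounded Tak-1 the counts were 3527 higher and 3449 lower. All 18 libraries share the estimate of the spread, and with the compared groups alone in the fit 2569 were higher and 2758 lower. The balance of directions moved with the scaling: 49.8% of calls were higher with the deposited scaling and 70.8% with library totals, where the median of all tested genes moved up to 0.14 and the counts became 5006 higher and 2062 lower.

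Unwounded tissue already differed between the genotypes. In mock libraries, whose levels enter no mean of the wounded comparison, 2318 genes were higher in Mpdes6fad5 (17.5% of those tested) and 2698 were lower (20.4%). Of the 3365 genes higher after wounding, 1499 were also higher in mock tissue, which is 44.5% of the wounded list and 64.7% of the mock list. Of the 3388 lower genes, 1825 were also lower in mock tissue, 53.9% of the wounded list and 67.6% of the mock list. Opposite calls were few, with 73 of the higher and 91 of the lower genes. Across all tested genes the wounded and mock differences had a Pearson r of 0.707, given as a description because genes are not independent replicates.

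The difference between genotypes was itself tested for a change with wounding. It was more positive after wounding than in mock tissue for 987 genes (7.47% of those tested) and more negative for 974 (7.37%). Among the 3365 higher genes the gap was larger after wounding for 729 and smaller for 29. Among the 3388 lower genes it was larger for 737 and smaller for 66. Of the 522 genes at least 2-fold higher, 314 (60.2%) were already higher in mock tissue and 258 had a gap that grew, whereas of the 264 genes at least 2-fold lower, 222 (84.1%) were already lower in mock tissue and 71 had a gap that grew.

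**Figure D1:**
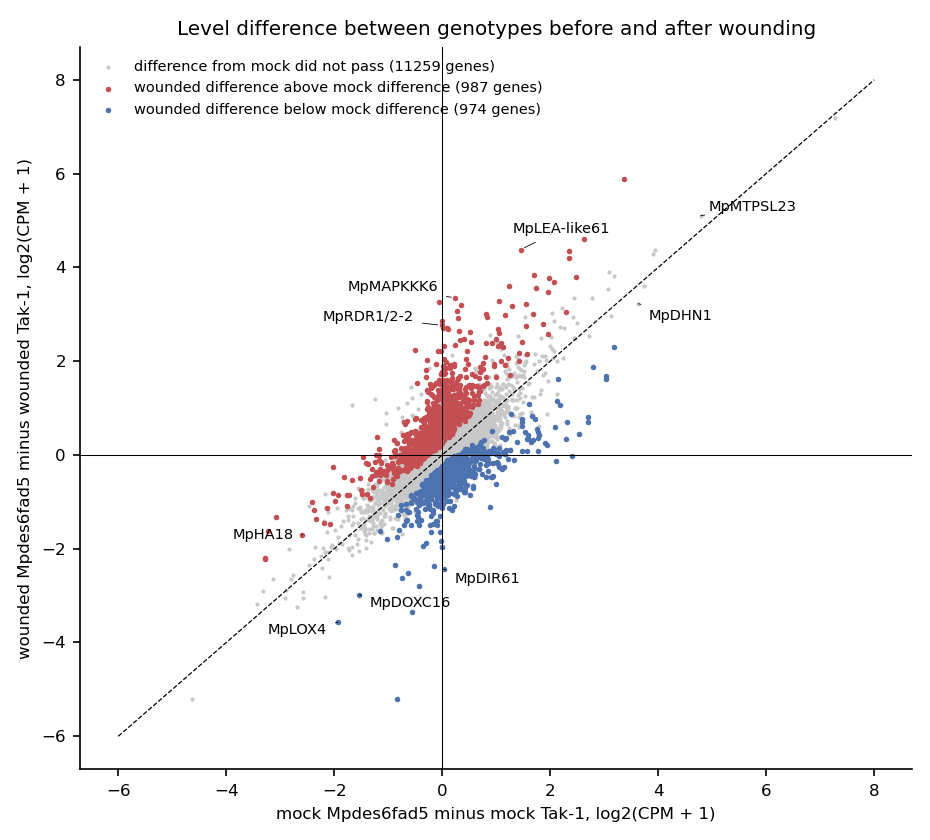
Each point is a tested gene, with the mock difference between Mpdes6fad5 and Tak-1 on the x axis and the wounded difference on the y axis, both in log2(CPM + 1). Coloured points mark the 987 genes whose wounded difference lies above and the 974 whose wounded difference lies below the mock difference (limma adjusted p under 0.05), and the cloud follows the diagonal with an r of 0.707.

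Before the hormone genes, the targeted genes themselves were read. MpFAD5 (Mp3g10660), a fatty acid desaturase, stood at 538, 488 and 600.2 CPM in wounded Tak-1 and 299, 283 and 301 CPM in wounded Mpdes6fad5, with no overlap, a difference of -0.87 ± 0.09 (SE), with a limma adjusted p of 4.62e-07. MpDES6 (Mp6g17330), the other desaturase of the pair, stood at 41.4, 34.7 and 46.4 CPM against 31.4, 33.0 and 27.5 CPM, a difference of -0.40 ± 0.11 (SE), with a limma adjusted p of 0.00724, which was no longer called with library totals (-0.26). Both transcripts were thus still counted in the double mutant at reduced levels, and both were also lower in mock tissue, by -0.71 and -0.55. Since the kind of mutation is not given, the transcript level is no check of the genotype.

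Of 23 desaturase and elongase genes, all measured, 2 were higher, 11 lower and 10 uncalled, against 25.5% higher and 25.6% lower over all tested genes, with a median of -0.16. With library totals 4 were higher and 6 lower. Without replicate 2 of wounded Tak-1 0 were higher, and without its replicate 3 1 was. MpFAD11 (Mp5g20700), a desaturase gene, stood at 924, 850.5 and 859 CPM in wounded Tak-1 and 431, 449.6 and 409 CPM in wounded Mpdes6fad5, a difference of -1.03 ± 0.07 (SE), with a limma adjusted p of 2.39e-09, about the size of its mock difference of -0.96. MpFAD8 (Mp3g17690) stood at 95.7, 79.4 and 92.8 CPM against 40.0, 39.1 and 34.4 CPM. Its difference of -1.21 ± 0.08 (SE, limma adjusted p = 2.83e-09) went beyond its mock difference of -0.45, and the change of -0.77 ± 0.11 passed the test (limma adjusted p = 0.000194). Neither desaturase overlapped between the groups, as was the case for 53.9% of all tested genes. MpFAD4 was lower by a smaller amount (-0.52, limma adjusted p = 0.000422).

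Of 22 measured genes of glycerolipids and lipid droplets, 5 were higher, 10 lower and 7 uncalled, against 25.5% higher and 25.6% lower over all tested genes. With library totals the count turned, to 7 higher and 5 lower. MpMGDG (Mp2g10950), which makes the plastid lipid monogalactosyldiacylglycerol, stood at 236, 210.4 and 218 CPM in wounded Tak-1 and 153, 148 and 152 CPM in wounded Mpdes6fad5 (-0.55, limma adjusted p = 1.59e-07). MpGPAT6b, a glycerol-3-phosphate acyltransferase gene, did not differ by test in mock tissue (0.00, limma adjusted p = 0.975) and was lower after wounding (-0.59, limma adjusted p = 7.09e-07). MpOLEOSIN, for a coat protein of lipid droplets, went the other way, with 2.48, 1.58 and 2.11 CPM against 4.25, 4.59 and 4.63 CPM (0.85, limma adjusted p = 0.000474).

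Lipoxygenase and CYP74 genes were lower in wounded Mpdes6fad5 more often than higher. Of 18 listed genes 17 were measured, and 2 were higher, 10 lower and 5 uncalled, against 25.5% higher and 25.6% lower over all tested genes. Their median was -0.42, and 6 were at least 2-fold lower. The unmeasured gene, MpLOX15, had 3 reads over the wounded Tak-1 libraries and 6 over the wounded Mpdes6fad5 libraries. Their summed level was 3397 to 3710 CPM in wounded Tak-1, 1813 to 1843 CPM in wounded Mpdes6fad5 and 861 to 932 CPM in wounded Mpcoi1. For 7 of the 17 the difference after wounding was more negative than in mock tissue by test, and for 0 it was more positive. Over all tested genes these shares were 7.37% and 7.47%.

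MpLOX4 (Mp5g21680) had the most negative difference of any gene with a symbol. It stood at 394, 331 and 204 CPM in wounded Tak-1 and at 23.6, 19.7 and 30.5 CPM in wounded Mpdes6fad5. Every wounded Tak-1 library was far above every wounded Mpdes6fad5 library, and the difference was -3.57 ± 0.23 (SE), with a limma adjusted p of 3.1e-09. In mock tissue the difference was -1.93, and the wounded difference lay below it by -1.64 ± 0.33 (SE, limma adjusted p = 0.00308). Wounded Mpcoi1 held 3.54, 4.78 and 2.71 CPM, under all wounded Mpdes6fad5 libraries, and the mutants differed from each other by 2.45, limma adjusted p = 1.75e-07.

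MpLOX2 (Mp2g23380) was high in both genotypes after wounding, at 1378, 1447 and 1281 CPM in Tak-1 and 789, 727 and 746 CPM in Mpdes6fad5. The groups did not overlap, and the difference was -0.86 ± 0.11 (SE), with a limma adjusted p of 6.49e-06. MpLOX14 (Mp8g12930) stood at 490.3, 483 and 357 CPM against 151, 141 and 174 CPM, a difference of -1.50 ± 0.12 (SE, limma adjusted p = 3.3e-08). Its replicate 3 of wounded Tak-1 was the lowest of its group and still above every Mpdes6fad5 library. MpLOX16 (-1.85, limma adjusted p = 7.03e-08) and MpLOX10 (-0.42, limma adjusted p = 0.00182, a call lost with quantile normalization) were lower as well. MpLOX6 and MpLOX8 had few reads in either genotype and were lower in the mutant, with differences of -1.29 and -1.09 (limma adjusted p = 0.000172 and 0.00059).

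Against this direction stood 2 genes. MpLOX5 (Mp1g21930) was higher in the mutant, at 3.80, 2.84 and 5.50 CPM in wounded Tak-1 and 9.20, 10.01 and 10.4 CPM in wounded Mpdes6fad5 (1.14, limma adjusted p = 8.55e-06), as in mock tissue (0.91). MpLOX1 (Mp2g00660) spread widely within Tak-1, at 12.5, 27.1 and 172 CPM, and stood at 194, 166 and 157 CPM in Mpdes6fad5. Replicate 3 of wounded Tak-1 lay within the mutant's range and the other Tak-1 libraries far below it. The difference was 2.10 ± 0.68 (SE), with a limma adjusted p of 0.0155. It was 3.15 without that replicate, and lost its call without replicate 1 or 2 of wounded Tak-1, with a lowest value of 1.31.

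CYP74 enzymes act on the hydroperoxides that lipoxygenases make. MpCYP74N2 (Mp5g16260) stood at 1029, 1013 and 949.5 CPM in wounded Tak-1 and 392, 440.0 and 457 CPM in wounded Mpdes6fad5. The groups were far apart, with a difference of -1.21 ± 0.07 (SE), with a limma adjusted p of 1.12e-09, against -0.64 in mock tissue. In wounded Mpcoi1 it was 139, 144 and 149 CPM. The related MpCYP74N1 differed by -0.22, limma adjusted p = 0.0479, a call lost when any library other than replicate 1 of wounded Tak-1 was left out (-0.14 without replicate 3).

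**Figure D2:**
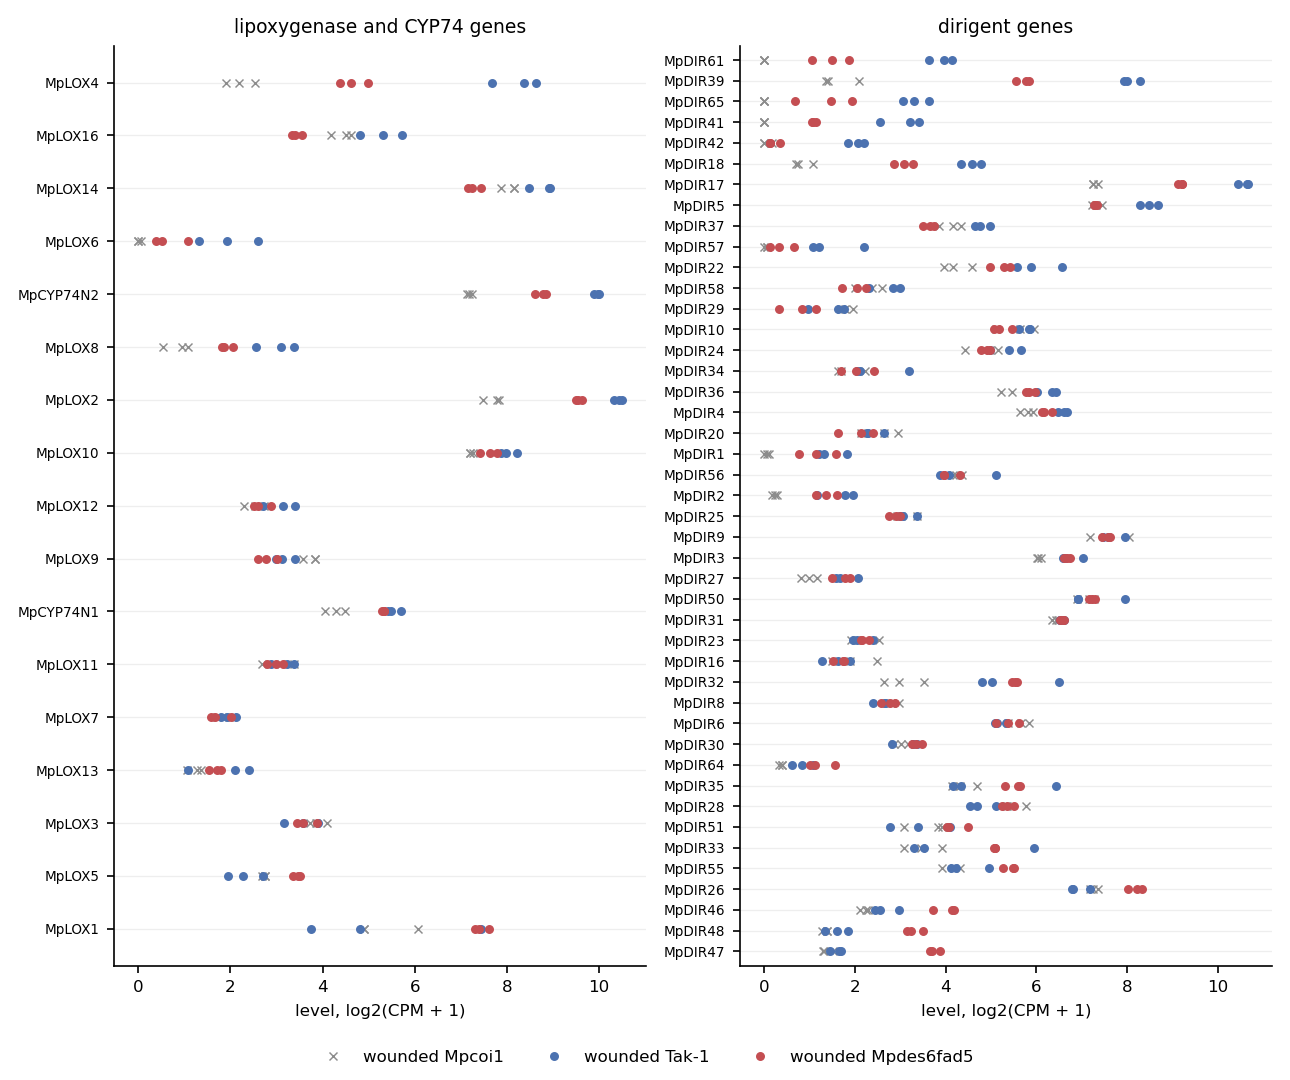
Each line is a lipoxygenase or CYP74 gene (left) or a dirigent gene (right), and each point the level of a wounded library of Tak-1, Mpdes6fad5 or Mpcoi1 in log2(CPM + 1). MpLOX4 shows the widest gap between Tak-1 and Mpdes6fad5 on the left (-3.57), and MpDIR61 (-2.44) and MpDIR39 (-2.34) on the right.

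Of 5 genes of hormone conjugation and oxidation 2 were higher, 2 lower and 1 uncalled, against 25.5% higher and 25.6% lower over all tested genes. Of the 5, 0 were higher without replicate 3 of wounded Mpdes6fad5 and 1 without replicate 3 of wounded Tak-1. The lower genes are the ones described here. MpGH3A (Mp6g07600), of the GH3 family that joins hormones to amino acids, stood at 423, 490.3 and 543 CPM in wounded Tak-1, 231, 239.8 and 247 CPM in wounded Mpdes6fad5 and 20.2, 20.7 and 25.1 CPM in wounded Mpcoi1. The genotypes formed separate groups in that order, with a difference of -1.01 ± 0.13 (SE), with a limma adjusted p of 6.69e-06 for Mpdes6fad5 against Tak-1 and 3.39, limma adjusted p = 1.27e-12 for Mpdes6fad5 against Mpcoi1. MpCYP94-like (Mp2g10330), related to the enzymes that oxidise jasmonoyl-isoleucine in Arabidopsis, gave the same order, at 30.3, 31.3 and 35.6 CPM, 21.2, 20.2 and 18.5 CPM and 1.02, 1.11 and 1.65 CPM. Its difference from Tak-1 was -0.67 ± 0.14 (SE), with a limma adjusted p of 0.000567, and that from wounded Mpcoi1 was 3.22, limma adjusted p = 4.51e-12. The comparison of Mpcoi1 with Tak-1 shares the wounded Tak-1 libraries with the comparison described here, so only the levels and the direct contrast of the mutants are given.

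Of 4 core signalling genes 1 was higher, 2 lower and 1 uncalled, against 25.5% higher and 25.6% lower over all tested genes. With library totals 2 of the 4 were higher and 1 lower. MpJAZ (Mp6g06230), the repressor that the hormone removes and whose gene is itself a target of the pathway, stood at 176, 192 and 155 CPM in wounded Tak-1, 117, 121 and 121 CPM in wounded Mpdes6fad5 and 25.5, 27.3 and 24.6 CPM in wounded Mpcoi1. Mpdes6fad5 lay between the others without overlap, below Tak-1 by -0.53 ± 0.09 (SE, limma adjusted p = 9.79e-05) and above Mpcoi1 by 2.17 ± 0.09 (SE, limma adjusted p = 3.36e-12). Its gap to Tak-1 was -0.53 in mock tissue, and the change between the treatments was -0.01, limma adjusted p = 0.979. MpCOI1, the receptor gene, stood at 71.9, 72.4 and 63.4 CPM against 77.0, 73.2 and 85.0 CPM, a difference of 0.18, limma adjusted p = 0.0885. Of the corepressor genes, MpTPL was higher (0.28, limma adjusted p = 0.0026), and MpNINJA was called lower (-0.20, limma adjusted p = 0.0455) only while every library other than replicate 3 of wounded Tak-1 was kept (-0.30 without that replicate). MpBHLH3 (Mp2g00910), a bHLH transcription factor gene, showed a larger gap, at 82.0, 90.2 and 102 CPM in wounded Tak-1, 37.3, 32.6 and 33.2 CPM in wounded Mpdes6fad5 and 2.26, 2.61 and 6.27 CPM in wounded Mpcoi1. Its difference was -1.38 ± 0.22 (SE), with a limma adjusted p of 5.25e-05, and its mock difference was -1.39. Over the 38 measured bHLH genes 6 were higher (15.8%) and 10 lower (26.3%), and with library totals 12 were higher and 7 lower.

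Late embryogenesis abundant (LEA) proteins and dehydrins, a class of them, accumulate in drying plant tissue and seeds and are thought to shield other proteins and membranes. In vegetative Marchantia they are known to be induced by abscisic acid. Of 72 listed genes 60 were measured, and 42 of these were higher in wounded Mpdes6fad5, 6 lower and 12 uncalled, against 25.5% higher and 25.6% lower over all tested genes. Of the higher genes 36 reached 2-fold, a size that 3.95% of all tested genes reached, and the median over the 60 was 1.51. In mock tissue 31 were higher and 7 lower, with a median of 0.67, and for 25 the wounded difference exceeded the mock difference by test. The other 12 genes did not reach 1 CPM in 3 libraries. Among them, MpLEA-like60 had the most reads over the wounded Mpdes6fad5 libraries, 64, against 0 over the wounded Tak-1 libraries.

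Their summed level was 2420 to 2689 CPM in wounded Tak-1 and 4249 to 5206 CPM in wounded Mpdes6fad5. Wounded Mpcoi1, at 2384 to 2764 CPM, overlapped wounded Tak-1. In mock tissue the sums overlapped, at 1573 to 1701 CPM in Tak-1 and 1577 to 1838 CPM in Mpdes6fad5.

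Dehydrin genes were higher in the mutant in all 3 cases. MpDHN1 (Mp6g07540) stood at 14.2, 32.4 and 23.9 CPM in wounded Tak-1 and 197, 186 and 279.7 CPM in wounded Mpdes6fad5, a difference of 3.23 ± 0.28 (SE), with a limma adjusted p of 6.24e-08. A gap of that size was already present in mock tissue (3.63). MpDHN2 (Mp4g06390) stood at 85.8, 91.4 and 86.2 CPM against 401, 337 and 398 CPM, a difference of 2.09 ± 0.10 (SE), with a limma adjusted p of 6.44e-11. Here the mock difference was 0.79, and the gap grew by 1.30 ± 0.14 (SE, limma adjusted p = 1.31e-05). MpDHN3 stood at 133, 167 and 168 CPM against 490.5, 474 and 559.8 CPM (1.70, limma adjusted p = 1.12e-09). None of the 3 overlapped between the groups, which also held for 53.9% of all tested genes.

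LEA genes on chromosome 6 lay side by side. MpLEAL3 (Mp6g02960) and its neighbours MpLEA-like34, MpLEA-like35, MpLEA-like36 and MpLEA-like37 were 5 tested genes in a row, with differences of 3.56 to 3.91. MpLEAL3 stood at 4.38, 9.62 and 7.83 CPM in wounded Tak-1 and 97.4, 107 and 131 CPM in wounded Mpdes6fad5. MpLEA-like37 stood at 7.27, 12.9 and 5.59 CPM against 119, 122 and 173 CPM. In both the mutant libraries were all far above the Tak-1 libraries, with differences of 3.81 ± 0.26 and 3.91 ± 0.23 (SE, limma adjusted p = 4.8e-09 and 8.94e-10). The neighbours of these genes differed in how much of the gap preceded wounding. For MpLEAL3 the mock difference was 3.17 and the change with wounding 0.64, limma adjusted p = 0.265. For MpLEA-like39 (Mp6g03050), which lies further along, mock Tak-1 held no read in any library and mock Mpdes6fad5 0.264, 0.321 and 0.0942 CPM, whereas wounded levels were 2.27, 2.98 and 3.08 CPM in Tak-1 and 25.5, 24.4 and 33.4 CPM in Mpdes6fad5. Its difference was 2.92 ± 0.19 (SE), with a limma adjusted p of 2.95e-09, and the gap grew by 2.63 ± 0.27 (SE, limma adjusted p = 8.35e-06).

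Outside that stretch, MpLEA-like61 (Mp8g13550) stood at 0.105, 0.79 and 0.22 CPM in wounded Tak-1 and 25.2, 19.98 and 38.6 CPM in wounded Mpdes6fad5, a difference of 4.38 ± 0.23 (SE), with a limma adjusted p of 2.39e-10. The gap was smaller in mock tissue (1.45). MpLEA-like27 (Mp4g14880) stood at 2.32, 7.67 and 5.24 CPM against 97.4, 88.9 and 124 CPM (4.20, limma adjusted p = 2.95e-09). MpLEA-like4 (Mp1g23200) did not differ by test in mock tissue (-0.14, limma adjusted p = 0.302) and was higher after wounding, at 16.6, 14.7 and 13.1 CPM against 42.8, 37.1 and 50.9 CPM (1.49, limma adjusted p = 6.32e-09).

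Some members departed from the list in direction or in their change with wounding. MpLEA-like14 (Mp3g08260) was higher in the mutant, but its gap shrank with wounding. It went from 3.03 in mock tissue to 1.62 after wounding, a change of -1.41, limma adjusted p = 0.0481. Wounded Tak-1 held 20.9, 39.3 and 72.1 CPM and wounded Mpdes6fad5 116, 101.5 and 154 CPM. MpLEA-like6 (Mp1g26580) was lower in the mutant, at 549.8, 573 and 553 CPM in wounded Tak-1 and 309, 321 and 326 CPM in wounded Mpdes6fad5, without overlap (-0.81, limma adjusted p = 3.87e-08). MpLEA-like56 (-1.09, limma adjusted p = 1.97e-06) and MpLEA-like13 (-0.78, limma adjusted p = 2.81e-06) were lower too.

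**Figure D3:**
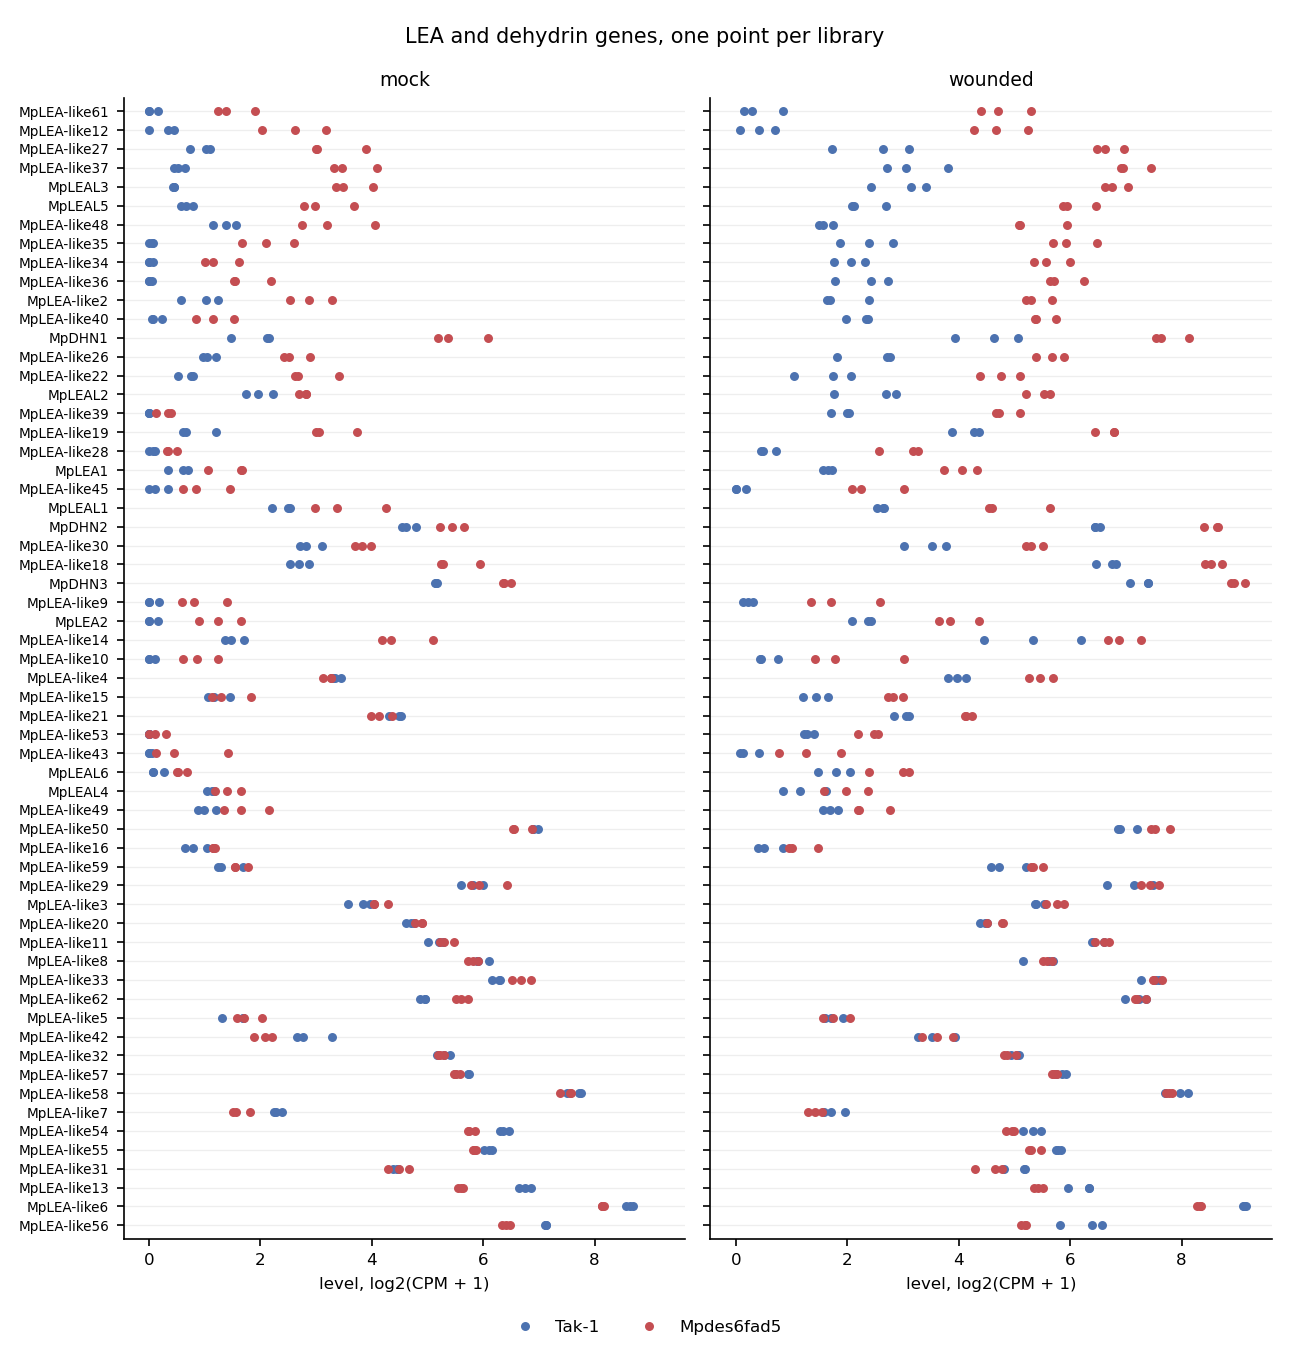
Each line is a LEA or dehydrin gene and each point a library, with mock libraries on the left and wounded libraries on the right, in log2(CPM + 1). Genes are ordered by their wounded difference, and most of the upper lines have all wounded Mpdes6fad5 points to the right of all wounded Tak-1 points.

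The abscisic acid pathway itself did not share one direction: of 12 measured genes 3 were higher, 6 lower and 3 uncalled. Over all tested genes 25.5% were higher and 25.6% lower. The lower count fell to 3 without replicate 2 of wounded Tak-1, and with library totals 4 were higher and 3 lower. MpABI5B (Mp2g22820), of the bZIP factors that act in abscisic acid responses in Arabidopsis, stood at 61.4, 61.2 and 46.9 CPM in wounded Tak-1 and 166, 149 and 188 CPM in wounded Mpdes6fad5 (1.56, limma adjusted p = 4.97e-09). MpABI3A (Mp5g08310), of the B3 factors known from seed maturation in Arabidopsis, stood at 36.3, 44.6 and 44.6 CPM against 85.1, 80.01 and 105 CPM (1.08, limma adjusted p = 3e-07). Neither overlapped, like 53.9% of all tested genes, and both were also higher in mock tissue, by 1.39 and 1.60. MpNCED, for the step that limits abscisic acid synthesis in flowering plants, stood at 13.2, 14.0 and 9.33 CPM against 11.7, 12.7 and 13.5 CPM and was not called (0.06, limma adjusted p = 0.795). The kinase gene MpSNRK2A (-0.47, limma adjusted p = 0.000396) and the receptor gene MpPYL1 (-0.31, limma adjusted p = 0.00334) were lower.

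Dirigent proteins steer the coupling of phenolic radicals into lignans and related compounds in flowering plants. Of 59 listed genes 44 were measured. Of the measured genes 7 were higher (15.9%), 17 lower (38.6%) and 20 uncalled, against 25.5% and 25.6% over all tested genes. Of these 10 were at least 2-fold lower, a size that 2% of all tested genes reached, and 4 at least 2-fold higher. The median was -0.26, and -0.070 without replicate 3 of wounded Tak-1. With library totals 12 were higher and 15 lower.

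The most negative differences lay in a single stretch of chromosome 5, where MpDIR65, MpDIR61, MpDIR42, MpDIR41 and MpDIR39 were 5 tested genes in a row. MpDIR42, and MpDIR57 outside this stretch, passed the filter only through the wounded Tak-1 libraries. That fixed their direction, and both are among the lower genes counted above. MpDIR39 (Mp5g16510) stood at 242, 252 and 308 CPM in wounded Tak-1, 56.5, 45.7 and 53.3 CPM in wounded Mpdes6fad5 and 1.66, 3.23 and 1.56 CPM in wounded Mpcoi1. The genotypes again formed separate groups in that order. The difference from Tak-1 was -2.34 ± 0.16 (SE), with a limma adjusted p of 4.3e-09, and that from wounded Mpcoi1 4.10, limma adjusted p = 1.26e-12. MpDIR61 (Mp5g16460) stood at 14.5, 11.3 and 16.7 CPM in wounded Tak-1 and 1.81, 2.64 and 1.07 CPM in wounded Mpdes6fad5, with no read in any wounded Mpcoi1 library (-2.44, limma adjusted p = 4.87e-09). MpDIR41 (Mp5g16480) had no read in any mock library of Tak-1 or Mpdes6fad5 or in wounded Mpcoi1, and stood at 4.85, 8.27 and 9.59 CPM in wounded Tak-1 and 1.19, 1.11 and 1.07 CPM in wounded Mpdes6fad5 (-1.97, limma adjusted p = 3.19e-08). A count of 0 allows up to 3 reads, or 0.107 to 0.158 CPM over the 18 libraries.

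Elsewhere, MpDIR17 (Mp7g06220) stood at 1613, 1591 and 1389 CPM in wounded Tak-1 and 592, 587 and 551 CPM in wounded Mpdes6fad5, without overlap, a difference of -1.40 ± 0.06 (SE), with a limma adjusted p of 1.93e-11. A second stretch, on chromosome 3, was higher in the mutant: MpDIR48, MpDIR47 and MpDIR46 were 3 tested genes in a row with differences of 1.71, 2.15 and 1.36. MpDIR47 (Mp3g24150) stood at 2.16, 1.72 and 2.24 CPM against 11.7, 12.0 and 13.7 CPM (2.15, limma adjusted p = 4.87e-09). That gap was present in mock tissue (1.72). For MpDIR26 it was not (0.16, limma adjusted p = 0.267), yet wounded levels were 109, 111 and 143 CPM in Tak-1 and 294, 257 and 320.3 CPM in Mpdes6fad5 (1.27, limma adjusted p = 8.23e-08). Reads of near-identical neighbouring copies of LEA, dirigent or polyphenol oxidase genes may have been shared out or dropped in counting, so values of single copies are less certain than those of the stretch.

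Polyphenol oxidases turn phenols into reactive quinones. Of 38 measured genes 16 were higher (42.1%), 6 lower (15.8%) and 16 uncalled, against 25.5% and 25.6% over all tested genes. With quantile normalization 13 were higher and 9 lower, and in mock tissue 7 were higher and 7 lower. The summed level of the listed genes went the other way, at 2507 to 3056 CPM in wounded Tak-1 and 1902 to 1988 CPM in wounded Mpdes6fad5. MpPPO31 (Mp3g24060) stood at 19.2, 17.3 and 32.1 CPM in wounded Tak-1 and 4.602, 4.59 and 6.82 CPM in wounded Mpdes6fad5, with no read in wounded Mpcoi1 (-1.88, limma adjusted p = 4.47e-07). MpPPO2 (Mp2g05780) stood at 2.06, 1.86 and 16.1 CPM against 22.6, 22.4 and 22.1 CPM, a difference of 2.14, limma adjusted p = 0.000942. Of the Tak-1 libraries replicate 3 lay closest to the mutant. MpPPO36 (Mp6g17800) showed the same picture, at 0.633, 1.81 and 20.3 CPM against 26.5, 30.9 and 21.7 CPM (2.56, limma adjusted p = 0.00538). Without replicate 3 of wounded Tak-1 the differences were 2.98 for MpPPO2 and 3.66 for MpPPO36.

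Phenylpropanoid and flavonoid genes had 20 higher (26.3%), 24 lower (31.6%) and 32 uncalled of 76 measured, against 25.5% and 25.6% of all tested genes. There were 29 higher without replicate 3 of wounded Tak-1, 13 higher without replicate 1, and 27 higher and 21 lower with library totals. The chalcone synthase family gene MpPKS/CHS16 stood at 12.9, 18.4 and 138 CPM in wounded Tak-1 and 122, 128 and 109 CPM in wounded Mpdes6fad5. Replicate 3 of wounded Tak-1 lay above all mutant libraries and the others far below, and its call (1.85, limma adjusted p = 0.0191) was lost without replicate 1 or 2 of wounded Tak-1 and became 2.87 without replicate 3. The methyltransferase family genes MpOMT13 (-1.78, limma adjusted p = 1.19e-07) and MpOMT3 (-1.75, limma adjusted p = 9.81e-09) were lower. Of 121 measured class III peroxidase genes 28 were higher and 32 lower, shares of 23.1% and 26.4% near those of all tested genes. With library totals 33 were higher and 26 lower, and in mock tissue 40 were higher and 31 lower.

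Enzymes that handle reactive oxygen were mostly lower. Of 30 measured antioxidant genes 5 were higher, 20 lower and 5 uncalled, a share of 66.7% lower against 25.6% of all tested genes, and 13 were lower with quantile normalization. With library totals 8 were higher, and without replicate 3 of wounded Tak-1 3 were. In mock tissue 4 were higher and 15 lower. MpDHAR1 (Mp1g12540), a dehydroascorbate reductase gene that recycles ascorbate, stood at 324, 319 and 289 CPM in wounded Tak-1 and 155, 188 and 191 CPM in wounded Mpdes6fad5, without overlap (-0.80, limma adjusted p = 1.5e-07). It did not differ by test in mock tissue (0.13, limma adjusted p = 0.167), and the gap changed by -0.94, limma adjusted p = 1.81e-05. MpMDHAR3, which also recycles ascorbate, was lower after wounding (-0.92, limma adjusted p = 1.01e-07) and in mock tissue (-1.35). The 3 measured catalase genes, for removal of hydrogen peroxide, did not share a direction. MpCAT1 stood at 15.4, 16.6 and 15.4 CPM against 30.7, 29.6 and 31.2 CPM (0.91, limma adjusted p = 1.71e-06), MpCAT4 differed by 1.68, limma adjusted p = 0.00034, and MpCAT2 was lower, by -0.30, limma adjusted p = 0.00146.

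Of 6 heat shock genes 1 was higher, 3 lower and 2 uncalled, against 25.5% higher and 25.6% lower over all tested genes. In mock tissue 0 of them were called in either direction. MpHSP90-1 (Mp1g26610), a chaperone gene, stood at 871, 852 and 800.3 CPM in wounded Tak-1, 419, 437 and 391 CPM in wounded Mpdes6fad5 and 808, 904 and 775 CPM in wounded Mpcoi1. Wounded Mpcoi1 overlapped Tak-1, and Mpdes6fad5 lay below both, by -1.02 ± 0.07 against Tak-1 (SE, limma adjusted p = 4.6e-09) and -0.99 against Mpcoi1 (limma adjusted p = 3.13e-09). The gap to Tak-1 was -0.10 in mock tissue and changed by -0.92, limma adjusted p = 1.17e-05.

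Among regulators of defence, 7 of 13 measured WRKY transcription factor genes were higher, 3 lower and 3 uncalled. Their shares were 53.8% higher and 23.1% lower, against 25.5% and 25.6% over all tested genes. Without replicate 1 of wounded Tak-1, 2 WRKY genes were higher. MpWRKY6 (Mp1g08960) stood at 3.43, 5.07 and 8.89 CPM in wounded Tak-1 and 16.6, 14.8 and 16.3 CPM in wounded Mpdes6fad5, without overlap (1.39, limma adjusted p = 0.000121). In mock tissue its difference was -0.29, limma adjusted p = 0.375. MpWRKY11 was lower, at 1659, 1829 and 1389 CPM against 961, 1032 and 1073 CPM (-0.66, limma adjusted p = 3e-05). MpWRKY3 (1.23, limma adjusted p = 0.0424) and MpWRKY7 (1.11, limma adjusted p = 0.0348) overlapped between the groups through replicate 3 of wounded Tak-1 and each lost the call when any of at least 4 of the 6 libraries was left out, and they were 1.93 and 1.81 without that replicate 3.

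MpMAPKKK6 (Mp2g17410), for a kinase of the family at the head of MAP kinase cascades, stood at 1.74, 1.16 and 3.30 CPM in wounded Tak-1 and 35.7, 24.2 and 28.0 CPM in wounded Mpdes6fad5. It was not called in mock tissue (0.24, limma adjusted p = 0.488), the wounded difference was 3.35 ± 0.26 (SE), with a limma adjusted p of 1.74e-08, and the gap grew by 3.10 ± 0.36 (SE, limma adjusted p = 2.79e-05). Wounded Mpcoi1 held 2.86, 1.55 and 4.49 CPM. Over the 28 measured genes of the cascade 6 were higher (21.4%) and 9 lower (32.1%), against 25.5% and 25.6% over all tested genes. With library totals 9 of the cascade were higher and 4 lower. MpRDR1/2-2 (Mp5g06390), an RNA-dependent RNA polymerase gene of the kind that makes double-stranded RNA in silencing, had 3 reads over the wounded Tak-1 libraries and 396 over the wounded Mpdes6fad5 libraries. Its levels were 0, 0 and 0.132 CPM and 7.79, 5.15 and 5.55 CPM, and wounded Mpcoi1 held 0.171, 0.0442 and 0.0445 CPM. The difference of 2.76 ± 0.13 (SE), with a limma adjusted p of 9.07e-11 had no counterpart in mock tissue, where levels were 0, 0.0401 and 0.0443 CPM in Tak-1 and 0, 0.0713 and 0 CPM in Mpdes6fad5. Of the libraries given here only those of wounded Mpdes6fad5 reached the 1 CPM of the filter, which may have fixed the direction.

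Of 21 measured pathogenesis-related genes 7 were higher (33.3%), 3 lower (14.3%) and 11 uncalled, against 25.5% and 25.6% over all tested genes. Without replicate 3 of wounded Tak-1, 12 of the list were higher. MpPR15e (Mp2g01660) stood at 1.48, 2.79 and 9.59 CPM in wounded Tak-1 and 37.2, 30.3 and 37.0 CPM in wounded Mpdes6fad5, with replicate 3 of wounded Tak-1 nearest to the mutant (2.95, limma adjusted p = 9.51e-06). MpPR15d differed by 2.85, limma adjusted p = 1.44e-06, and its mock difference was 2.08. MpPR1l was lower (-1.18, limma adjusted p = 0.000203).

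Terpenoid genes held the gene with a symbol that differed most. MpMTPSL23 (Mp4g19090), a terpene synthase gene of the microbial type found in non-seed plants, had 3 reads over the wounded Tak-1 libraries and 2242 over the wounded Mpdes6fad5 libraries. Levels were 0, 0.093 and 0.044 CPM against 39.2, 31.2 and 34.8 CPM, and 0.0427, 0 and 0.0445 CPM in wounded Mpcoi1. The difference was 5.10 ± 0.11 (SE), with a limma adjusted p of 4.59e-16, and 4.79 in mock tissue, where mutant libraries held 30.2, 30.4 and 30.4 CPM. Over the 36 measured terpenoid genes 10 were higher (27.8%) and 12 lower (33.3%), against 25.5% and 25.6% over all tested genes. With library totals 14 terpenoid genes were higher and 11 lower. MpKOL3, named for likeness to kaurene oxidase, stood at 42.3, 29.7 and 23.8 CPM against 7.08, 6.07 and 5.55 CPM (-2.15, limma adjusted p = 4.62e-07) and differed by -2.24 in mock tissue.

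Detoxification and export genes held members of both directions. Over all tested genes 25.5% were higher and 25.6% lower, the shares against which the family counts here are to be read. MpGST27 (Mp7g00790), a glutathione transferase gene, stood at 4.64, 4.56 and 13.5 CPM in wounded Tak-1 and 53.1, 48.4 and 57.0 CPM in wounded Mpdes6fad5 (2.81, limma adjusted p = 2.52e-07), while MpGST10 was lower (-1.07, limma adjusted p = 1.46e-07); of 32 measured 9 were higher and 12 lower, and with library totals 14 were higher and 10 lower. The transporter gene MpABCG5 (Mp4g11430) stood at 1.37, 1.53 and 1.496 CPM against 24.0, 17.1 and 18.2 CPM (3.06, limma adjusted p = 2.87e-10), within a family in which 22 of 88 measured were higher and 21 lower, and 28 higher and 13 lower with library totals. MpDOXC16 (Mp3g11070), of the 2-oxoglutarate dependent dioxygenases, was lower, at 40.6, 22.3 and 18.3 CPM in wounded Tak-1 and 2.48, 1.90 and 2.75 CPM in wounded Mpdes6fad5, with a difference of -2.98 ± 0.20 (SE), with a limma adjusted p of 4.54e-09. Of 28 measured in that family 11 were higher and 7 lower, and 4 lower without replicate 1 of wounded Tak-1. Of 88 measured cytochrome P450 genes 16 were higher and 33 lower, with 26 higher and 25 lower under library totals, and MpCYP829-like12 had the most negative difference among them (-2.55, limma adjusted p = 3.42e-06).

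**Figure D4:**
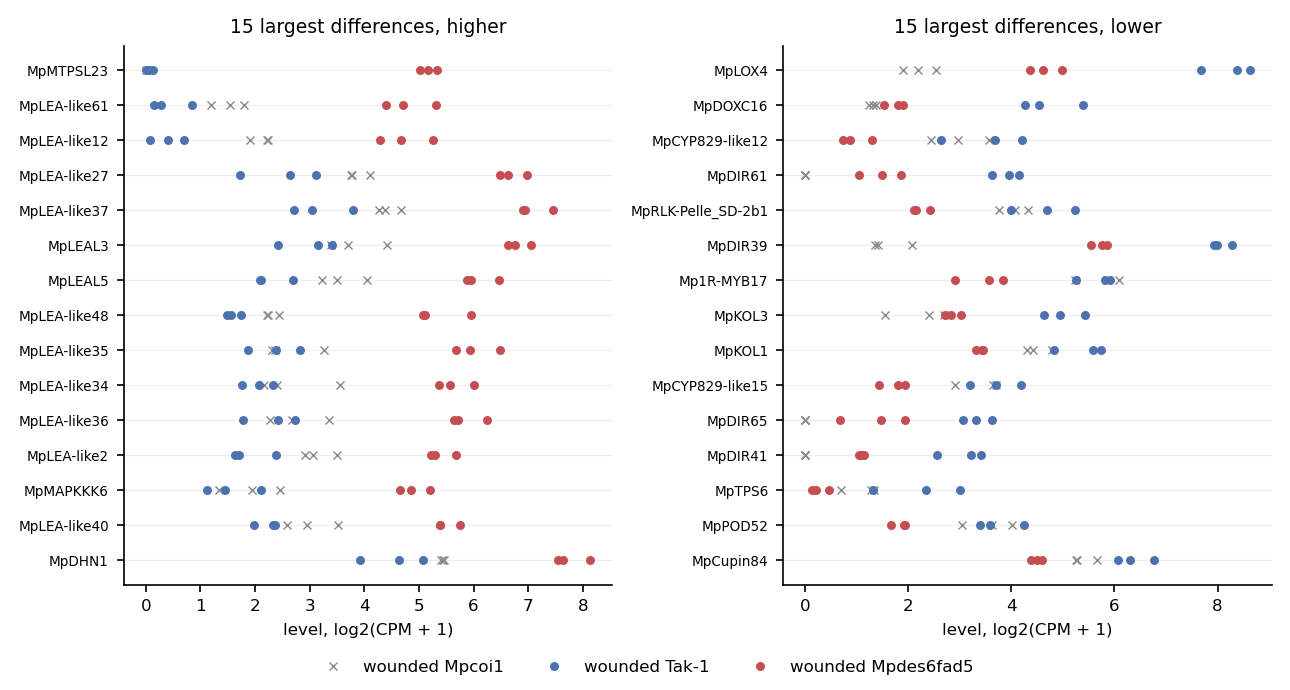
Each line is a gene with a symbol, the 15 with the highest differences on the left and the 15 with the lowest on the right, and each point is the level of a wounded library of Tak-1, Mpdes6fad5 or Mpcoi1 in log2(CPM + 1). Wounded Tak-1 and Mpdes6fad5 points do not overlap in any line, which the choice of these genes fixed, from 5.10 for MpMTPSL23 to -3.57 for MpLOX4.

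Of 72 measured membrane transport genes 15 were higher and 28 lower, against 25.5% and 25.6% of all tested genes, and with library totals 19 were higher and 19 lower. MpHA18 (Mp3g12400), a plasma membrane proton pump gene, stood at 19.0, 10.6 and 15.8 CPM in wounded Tak-1 and 3.36, 3.71 and 4.53 CPM in wounded Mpdes6fad5 (-1.70, limma adjusted p = 3.34e-07). Its gap was wider in mock tissue (-2.59), and the change was 0.89, limma adjusted p = 0.018. MpAMT2.3, of the ammonium transporters, and MpPIP2-like, of the aquaporins, were lower by similar amounts, with differences of -1.67 and -1.59 (limma adjusted p = 5.28e-07 and 1.58e-07). Of 94 measured cell wall enzyme and expansin genes 8 were higher (8.51%) and 33 lower (35.1%), with 14 higher and 26 lower under library totals. In mock tissue 21 of these genes were higher and 32 lower. Expansins loosen walls, and MpExpansin28 (Mp3g12300) stood at 99.2, 74.0 and 44.1 CPM in wounded Tak-1 and 22.0, 20.9 and 19.7 CPM in wounded Mpdes6fad5 (-1.68, limma adjusted p = 5.23e-06). Of the meristem markers, the receptor gene MpCLV1 stood at 255, 287 and 209.9 CPM against 139.6, 183 and 176 CPM (-0.59, limma adjusted p = 0.000195).

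Several lists had calls near or below the background of 25.5% higher and 25.6% lower. Class III peroxidase (23.1% and 26.4%), ABC transporter (25.0% and 23.9%) and C2H2 zinc finger genes (23.8% and 23.8%) were among them. Cell cycle and histone genes had 6 higher and 7 lower of 43, and peroxisome biogenesis genes 2 higher and 2 lower of 17. Receptor-like kinases had 11 higher and 17 lower of 82, and MYB factors 7 higher and 9 lower of 45. With library totals receptor-like kinases had 26 higher and 14 lower, MYB factors 14 and 6, peroxisome genes 9 and 2 and cell cycle genes 8 and 5, and without replicate 1 of wounded Tak-1 6 receptor-like kinase and 2 cell cycle genes were. Among the MYB factors, Mp1R-MYB17 (Mp4g21300) stood at 59.2, 55.1 and 37.2 CPM in wounded Tak-1, 6.504, 13.2 and 10.9 CPM in wounded Mpdes6fad5 and 56.9, 67.3 and 36.4 CPM in wounded Mpcoi1, which overlapped Tak-1. Its difference from Tak-1 was -2.22 ± 0.21 (SE), with a limma adjusted p of 2.29e-07, and that from Mpcoi1 -2.29, limma adjusted p = 1.4e-07.

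**Figure D5:**
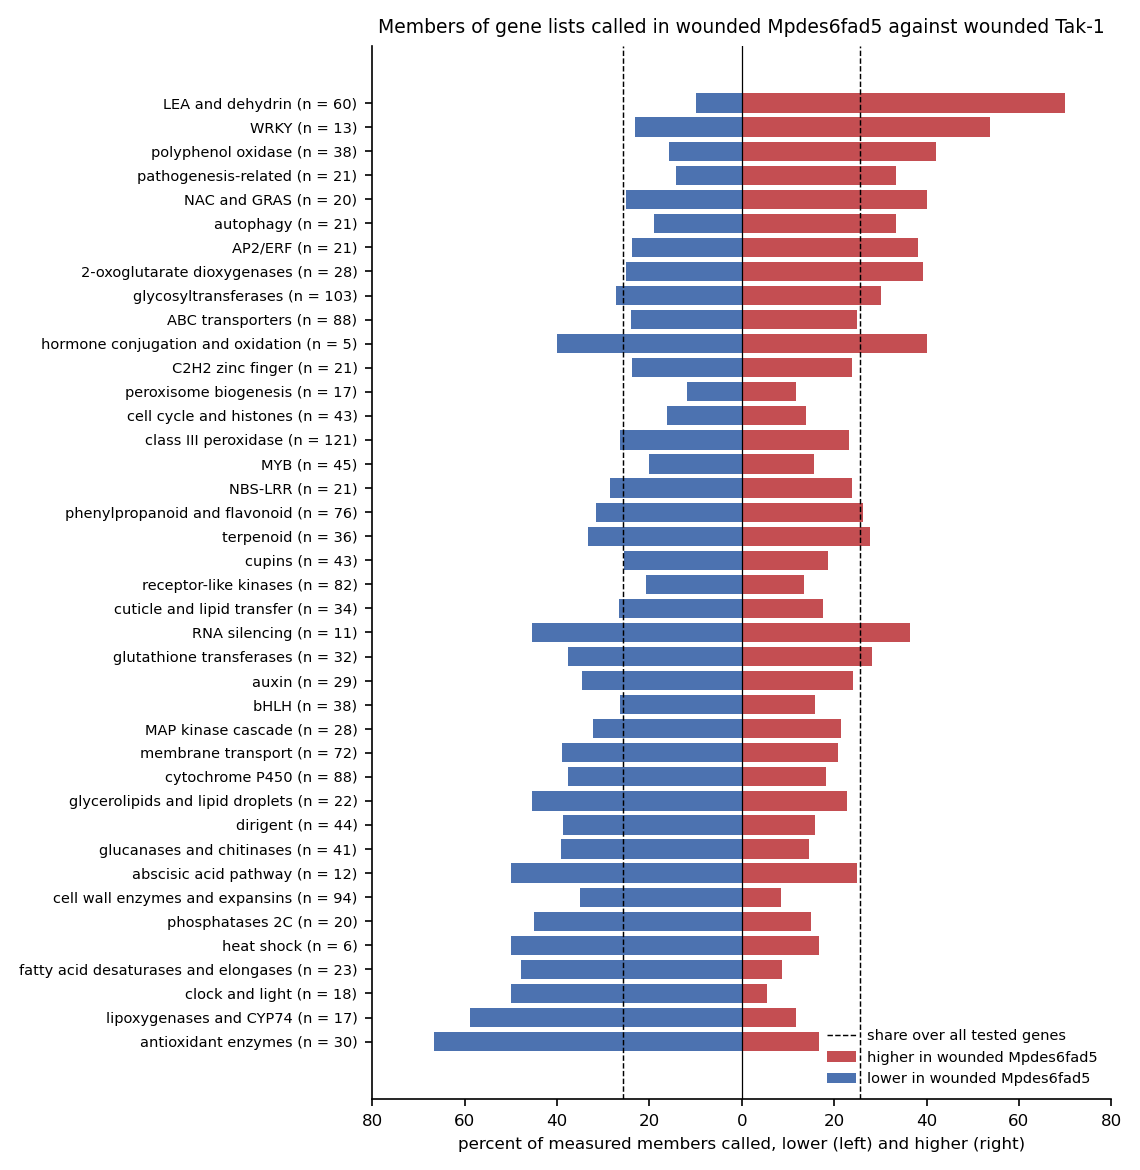
For each gene list with 5 or more measured members, bars give the percent of measured members called higher (right) and lower (left) in wounded Mpdes6fad5 against wounded Tak-1. Dashed lines mark the shares over all tested genes, 25.5% higher and 25.6% lower, and the LEA and dehydrin list lies furthest to the right with 70% higher.

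Of the 522 genes at least 2-fold higher 128 had a symbol (24.5%), and of the 264 at least 2-fold lower 91 had (34.5%), against 2516 of the 13220 tested genes (19.0%). The highest difference of all was that of Mp5g02010, at 1.05, 1.58 and 1.14 CPM in wounded Tak-1 and 321, 301 and 358 CPM in wounded Mpdes6fad5 (7.18, limma adjusted p = 2.36e-15), with the same gap in mock tissue (7.27). The lowest was that of Mp2g18790, at 67.6, 39.3 and 67.1 CPM against 0.531, 0.556 and 0.56 CPM (-5.21, limma adjusted p = 3.47e-11). In mock tissue Mp2g18790 differed by -0.83, and wounded Mpcoi1 held 0.0853, 0.0442 and 0.0445 CPM, below all wounded Mpdes6fad5 libraries.

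Genes at least 2-fold apart also lay next to each other. Counting stretches of 3 or more neighbouring tested genes that all reached 2-fold in the same direction, there were 12 stretches of higher genes with 43 genes and 8 of lower genes with 32 genes. The longest held 7 lower genes, from Mp5g04550 to Mp5g04610, with differences of -1.66 to -1.12, and 6 higher genes, from Mp2g01710 to Mp2g01820, with differences of 1.74 to 2.69. MpRDR1/2-2 was the last of 4 higher neighbours, and MpLOX4 the last of 3 lower ones. By chromosome, the share of tested genes at least 2-fold lower was 4.01% on chromosome 5 and 1.26% to 2.20% on the other autosomes.

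Sets of genes were also marked out from the means of mock Tak-1 and of Mpcoi1, with no mean of the wounded groups compared here, although the shared estimate of the spread includes those libraries. Of 104 genes at least 2-fold lower in mock Mpcoi1 than in mock Tak-1, 63 were lower in wounded Mpdes6fad5 than in wounded Tak-1. A further 9 were higher and 32 uncalled, with a median of -0.80. The shares were 60.6% lower and 8.65% higher, against 25.6% and 25.5% over all tested genes. In mock tissue 81 of the 104 were already lower in Mpdes6fad5 than in Tak-1 and 9 higher, with a median of -1.21. Over all tested genes 20.4% were lower and 17.5% higher in mock tissue. The mock Tak-1 libraries also marked out this set, so the mock values were partly fixed by the choice of genes. Of all 603 genes lower in mock Mpcoi1, 305 were lower in wounded Mpdes6fad5 (50.6%) and 75 higher (12.4%). Of 278 genes higher in mock Mpcoi1, 106 were higher (38.1%) and 41 lower (14.7%). Sets marked out by wounding within Mpcoi1 were also read. Of 974 genes at least 2-fold up after wounding within Mpcoi1, 254 were higher in wounded Mpdes6fad5 and 336 lower, with a median of -0.083. The shares were 26.1% and 34.5%, against 25.5% and 25.6% of all tested genes. Of the 974, 105 were at least 2-fold higher and 16 at least 2-fold lower, sizes that 3.95% and 2% of all tested genes reached. Of 312 genes at least 2-fold down after wounding within Mpcoi1, 56 were higher and 81 lower, shares of 17.9% and 26.0%.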

How the data were processed

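The deposited table holds log2 values for 20574 genes in 18 RNA-seq libraries, as deposited by the authors. From the values they have the form of log2 CPM with a small prior, with genes without reads at a shared floor of -3.4961. Per the submitters' processing notes, Trim Galore, HISAT2, HTSeq and edgeR were used. Versions, build and strand setting: not given in the sources used here. Subtracting the floor on the linear scale gave CPM, and whole reads were recovered for 100% of values up to 1000 reads, within 0.01. Without a known strand setting, reads of a gene and an overlapping antisense gene cannot be told apart. All 18 columns matched a sample by title.

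Genes with at least 1 CPM in at least 3 libraries (13220) were put on the log2(CPM + 1) scale and fitted by limma 3.58.1 (R 4.3.3) with a mean for each of the 6 groups, a trended prior and Benjamini-Hochberg adjustment at 0.05. Sums and figures used pandas 2.3.3, numpy 2.4.6 and matplotlib 3.10.9 under Python 3.11.15. The script was tested on simulated data. A symbol was found for 3091 of 17641 identifiers matched to the RefSeq gene table, which is of assembly MpTak2_v7.1 and was used for names and neighbours only. Alternatives changed the pseudocount, filter, scaling, variance model, samples in the fit and replicate block, ran voom on recovered reads, and left out each library of the compared groups in turn. The comparison, the gene lists and the markers were chosen with earlier results of these data known, so counts over lists are descriptions without a test of the list. Named genes were the 15 highest and 15 lowest called, non-overlapping genes with a symbol, up to 4 called members of each list, the 6 highest and 6 lowest differences from mock, the 3 highest and 3 lowest genes without a symbol, and the targeted and core jasmonate genes. Further members of the lipoxygenase, LEA, dirigent and abscisic acid lists, named beyond that rule, were chosen after their values were seen.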

Additional observations from a re-analysis of the deposited data

Results flagged for a closer look

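The difference between wounded Mpdes6fad5 and wounded Tak-1 departed from the mock difference by test for 12 genes named under the rule for the largest such changes, given here as wounded minus mock difference in log2(CPM + 1). More positive after wounding were MpMAPKKK6 by 3.10, MpLEA-like61 by 2.93, MpRDR1/2-2 by 2.77, MpLEA-like39 by 2.63, MpLEA-like34 by 2.36 and MpLEA-like40 by 2.22, with limma adjusted p values of 2.79e-05, 1.73e-05, 2.74e-07, 8.35e-06, 0.000506 and 6.35e-05. More negative were the dirigent genes MpDIR61 with -2.46, MpDIR41 with -1.97, MpDIR65 with -1.97 and MpDIR42 with -1.81, and MpLOX4 with -1.64 and MpGH16.30, of a family of wall glucan enzymes, with -1.63. Their limma adjusted p values were 3.83e-06, 2.18e-05, 0.000348, 3.66e-06, 0.00308 and 0.00323. MpGH16.30 changed sides: its mock difference was 1.00 and its wounded difference -0.63, the latter no longer called without replicate 1 of wounded Tak-1 (-0.35) or replicate 1 or 2 of wounded Mpdes6fad5. MpLEA-like34 and MpLEA-like40 stood at 2.37, 3.998 and 3.21 and 2.95, 4.18 and 4.05 CPM in wounded Tak-1 and 40.0, 46.5 and 63.3 and 40.6, 40.7 and 52.9 CPM in wounded Mpdes6fad5. MpDIR42 stood at 2.58, 3.21 and 3.56 CPM in wounded Tak-1 and 0.265, 0.0927 and 0.102 CPM in wounded Mpdes6fad5. It passed the filter only through the wounded Tak-1 libraries. For MpRDR1/2-2, of the libraries with levels given above only those of wounded Mpdes6fad5 reached 1 CPM. The filter may thus have fixed its direction as well.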

How the results depend on the processing

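Scaling moved the direction counts: with library totals 5006 genes were higher and 2062 lower, against 3365 and 3388 with the deposited scaling, and in mock tissue 4518 were higher and 1608 lower. The count at least 2-fold higher, 522, was 818 with the deposited log2 values, 815 with a pseudocount of 0.1 CPM, 828 with voom, 216 with a pseudocount of 5 CPM and 265 with a mean of at least 5 CPM. Voom on the recovered whole reads called 3265 genes higher and 3306 lower. The count at least 2-fold lower, 264, was 156 with a pseudocount of 5 CPM. Leaving out each library gave 2726 to 3527 higher, 2866 to 3449 lower, 457 to 666 at least 2-fold higher and 228 to 313 at least 2-fold lower genes. The wounded difference then lay above the mock difference for 718 to 1461 genes and below it for 693 to 1354, and mock counts were 1830 to 2371 higher and 2223 to 2637 lower. Of 364 genes named or listed with values, 286 were called; 231 of these stayed called in the same direction in all 18 alternatives run, 55 lost the call in at least 1, and 39 uncalled genes gained one.

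With the compared groups alone in the fit 2569 were higher and 2758 lower. With a replicate block the counts were 3349 higher and 3373 lower, 522 and 264 at least 2-fold, 988 and 981 for the difference from mock, and 2330 and 2700 in mock tissue. Same-numbered libraries did not deviate together: the correlations were -0.115, -0.0823 and -0.230 in wounded and 0.107, 0.0280 and 0.00341 in mock tissue, so the numbers were not taken as pairs. The cause of these dependences was not tested. Depth limits genes with few reads, since a count of 0 allows up to 3 reads in a library, for counting error only.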

Other observations

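Lists not described above gave these counts, to be set beside 25.5% higher and 25.6% lower over all tested genes. Of 21 measured AP2/ERF factor genes 8 were higher and 5 lower, and MpERF11 stood at 44.8, 46.6 and 40.2 CPM in wounded Tak-1 and 72.9, 88.5 and 86.7 CPM in wounded Mpdes6fad5 (0.90, limma adjusted p = 2.4e-07). Of 20 NAC and GRAS genes 8 were higher and 5 lower, with MpNAC6 at 0.264, 0.325 and 0.88 against 4.20, 3.66 and 3.66 CPM (1.72, limma adjusted p = 1.28e-06). C2H2 zinc finger genes had 5 higher and 5 lower of 21, type 2C phosphatases 3 and 9 of 20, and NBS-LRR genes 5 and 6 of 21. Of 18 clock and light genes 1 was higher and 9 lower. Among them the phytochrome gene MpPHY stood at 158, 159.9 and 148 CPM in wounded Tak-1 and 108, 117 and 107 CPM in wounded Mpdes6fad5 (-0.48, limma adjusted p = 5.27e-05), with no called difference in mock tissue (0.02, limma adjusted p = 0.851).

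Of 29 auxin genes 7 were higher and 10 lower. This count and those below stand beside 25.5% higher and 25.6% lower over all tested genes. The efflux carrier gene MpPIN1 stood at 209, 205 and 136 CPM in wounded Tak-1 and 93.8, 107 and 114 CPM in wounded Mpdes6fad5 (-0.78, limma adjusted p = 7.98e-05), and it was not called in mock tissue (-0.05, limma adjusted p = 0.817). MpYUC2, for an enzyme of auxin synthesis, stood at 5.32, 4.602 and 5.02 against 2.43, 2.73 and 2.90 CPM (-0.70, limma adjusted p = 8.48e-05). Autophagy genes had 7 higher and 4 lower of 21, with MpATG9 at 68.6, 77.9 and 74.1 against 102, 95.5 and 107 CPM (0.46, limma adjusted p = 8.67e-05). Glucanase and chitinase genes had 6 higher and 16 lower of 41, and 11 higher without replicate 3 of wounded Tak-1. In mock tissue 3 of them were higher and 22 lower. The chitinase family gene MpGH19.3 went against these counts, at 6.48, 4.32 and 13.9 CPM in wounded Tak-1 and 46.8, 51.2 and 45.3 CPM in wounded Mpdes6fad5 (2.53, limma adjusted p = 4.05e-05). Glycosyltransferases had 31 higher and 28 lower of 103, cupins 8 and 11 of 43, and cuticle and lipid transfer genes 6 and 9 of 34. MpCupin84 stood at 77.9, 65.6 and 108 against 23.0, 21.6 and 19.8 CPM (-1.89, limma adjusted p = 3.19e-08). With library totals auxin genes had 8 higher and 5 lower, cupins 12 and 9, C2H2 genes 10 and 4, and NBS-LRR genes 9 and 4. There the higher genes became 4 for clock and light, 5 for phosphatases, 11 for cuticle and 13 for autophagy genes, and the lower genes became 1 for autophagy, 3 for AP2/ERF, 3 for NAC and GRAS, 5 for cuticle and 10 for glucanase genes. Without replicate 3 of wounded Tak-1 13 cupins were higher, without its replicate 2 there were 2 higher clock and light genes, and without its replicate 1 there were 2 lower autophagy genes. With quantile normalization 4 auxin genes were higher, 4 glucanase genes were higher and 2 autophagy genes were lower.

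Transcripts of 207 genes on the male V chromosome summed to 2105 to 2386 CPM in wounded Mpdes6fad5 and 2435 to 3102 CPM in wounded Tak-1, and to 2420 to 2515 and 2417 to 2507 CPM in the mock groups. Wounded Mpcoi1 ranged from 2259 to 3346 CPM. Of 37 tested V genes 8 were higher and 7 lower in wounded Mpdes6fad5, 40.5% called against 51.1% of all tested genes.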
